A study of Homo sapiens with 6 samples.

Results

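The genes examined here were the 5 interferon-inducible subunits PSMB8, PSMB9, PSMB10, PSME1 and PSME2, and the 3 constitutive catalytic subunits PSMB5, PSMB6 and PSMB7, whose places PSMB8, PSMB9 and PSMB10 can take. They were chosen by symbol, each symbol matched a single row, and they were 8 of 26899 listed genes. All 8 passed the low-count filter and were among the 15299 genes tested, those with enough reads in at least 3 libraries for a test. RNA-seq libraries came from HK-2, an established human kidney proximal tubule line transformed with human papillomavirus 16, 3 of them under a control label and 3 under an ANXA2 knockdown label. The titles call the control cells wild type, whereas their descriptions read shCtrl, and the other libraries are described as shANXA2. Plasmids were introduced by lipid transfection per the labels, and nothing states whether replicates came from separate cultures, so p-values measure the spread between these libraries only.

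The proteasome is the protease that degrades ubiquitin-tagged proteins in the cytosol and nucleus. Its catalytic sites lie inside the 20S core, a barrel of stacked rings, on the beta subunits PSMB5 (chymotrypsin-like), PSMB6 (caspase-like) and PSMB7 (trypsin-like). Interferon, chiefly interferon gamma, induces PSMB8 (LMP7), PSMB9 (LMP2) and PSMB10 (MECL-1), which take the places of PSMB5, PSMB6 and PSMB7 in newly assembled cores and form the immunoproteasome. PSME1 and PSME2 encode the alpha and beta subunits of PA28, an interferon-inducible cap that opens the core. The immunoproteasome is known for making peptides that fit MHC class I molecules, and kidney epithelial cells can express it under cytokines.

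Library depth was 24231267 to 34561675 counted reads. CPM are reads divided by the library total, scaled by TMM, which aligns libraries on the bulk of their genes. ANXA2, the targeted gene, averaged 1539 ± 21.3 CPM under the knockdown label against 1598 ± 119 CPM under the control label (SD, n = 3). The log2 fold change, knockdown label over control label in all that follows, was -0.05 (SE 0.075) and its p, adjusted by Benjamini-Hochberg over all tested genes in edgeR, was 0.848. The transcript was therefore not detectably lower, with a 95% interval of -14.3% to 8.29%, so the groups are called by their labels throughout and no direction below is that of a measured ANXA2 loss. Of 13 epithelial and kidney tubule markers, 8 reached 1 CPM in every library, among them PAX8, KRT8 and GGT1, whereas the mature proximal tubule genes LRP2, CUBN, ANPEP and AQP1 held at most 12 reads per library. Leukocytes carry the immunoproteasome without stimulation, and of 15 of their markers PTPRC, CD2, CD3E and MS4A1 were among those not listed. Summed over the list, leukocyte markers reached 7.24 to 14.5 CPM under the knockdown label and 8.08 to 12.1 CPM under the control label, with CD14, CD68 and LCP1 above 1 CPM in each library. Their part in the values below was not tested, and in bulk RNA fewer cells of a kind and less RNA per cell cannot be told apart.

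PSMB8, PSMB9 and the peptide transporter genes TAP1 and TAP2 sit together in the MHC region. In GRCh38, by GENCODE release 44, PSMB8 (ENSG00000204264) spans chr6:32840717-32844679 on the minus strand and PSMB9 (ENSG00000240065) spans chr6:32844136-32859851 on the plus strand, with TAP1 at chr6:32845209-32853816 on the minus strand, head to head with the RefSeq start of PSMB9 used below. PSME1 (ENSG00000092010, plus strand, chr14:24136163-24138967) and PSME2 (ENSG00000100911, minus strand, chr14:24143362-24147570) lie close to each other, and PSMB5 (ENSG00000100804, minus strand, chr14:23016543-23035230) is on the same chromosome. PSMB10 (ENSG00000205220) lies on the minus strand at chr16:67934506-67936864, PSMB6 (ENSG00000142507) on the plus strand at chr17:4796144-4798502 and PSMB7 (ENSG00000136930) on the minus strand at chr9:124353465-124415444.

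The interferon-stimulated response element, the DNA motif read by interferon regulatory factors and the ISGF3 complex, was searched for as GAAA, any 2 bases and GAAA again, on both strands in RefSeq windows (GRCh38.p14) from 250 bases before to 50 bases after each annotated start. The table held windows for 6 of the 8 genes, all but PSMB6 and PSMB7. A match was present in PSMB8 (at 1 of its 2 starts), PSMB10, PSME1 and PSME2, and in no window of PSMB9 or PSMB5, whereas 3.57% of all 35116 windows held one. The matching stretches are shown for comparison, 30 bases each on the strand of the gene, with the motif in capitals, together with TAP1, whose promoter region faces that of PSMB9.
PSMB8: gatctgtggcTTTCGCTTTCacttcctcct
PSMB10: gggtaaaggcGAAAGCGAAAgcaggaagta
PSME1: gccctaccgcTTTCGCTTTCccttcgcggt
PSME2: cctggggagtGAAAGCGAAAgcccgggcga
TAP1: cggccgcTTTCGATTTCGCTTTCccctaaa

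The same 10 letters, GAAAGCGAAA, stood in PSMB10 and PSME2 on the sense strand and in PSMB8, PSME1 and TAP1 as their reverse complement, TTTCGCTTTC. They began 4 bases before the start in PSMB8 (chr6:32844032-32844061 for the stretch shown), 21 before in PSMB10 (chr16:67936852-67936881) and 28 before in PSME2 (chr14:24146619-24146648), and at base 6 after it in PSME1 (chr14:24136189-24136218). TAP1 held a pair of overlapping matches in the stretch at chr6:32853816-32853845. The TAP1 stretch lies upstream of the PSMB9 window, so the lack of a match in PSMB9 holds for that window only. The 250 bases before the start of PSMB9 (chr6:32853942-32854191, plus strand) are shown because they held no match, so none of them is in capitals.
PSMB9: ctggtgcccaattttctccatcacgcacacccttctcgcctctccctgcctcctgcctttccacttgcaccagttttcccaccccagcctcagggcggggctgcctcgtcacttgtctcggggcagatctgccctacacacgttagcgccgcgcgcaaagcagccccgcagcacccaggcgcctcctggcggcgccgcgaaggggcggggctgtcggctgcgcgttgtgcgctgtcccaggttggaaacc

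Other motifs were more common among all windows. The gamma-activated site, a motif of interferon gamma responses, searched as TTCNNNGAA, was found in 7.66% of all windows, once in PSMB8 (bases -65 to -57 of the window that held the first motif) and at 2 places in 1 of the PSMB5 windows. The antioxidant response element, searched as TGACNNNGC, was found in 13.3% of all windows, and once each in PSMB9, PSME1 and PSME2. A match describes letters only, and neither binding nor use of these stretches was measured.

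First, the levels of the 8 genes were compared on the deposited FPKM scale (fragments per kilobase of transcript, relative to depth), which corrects for length. The constitutive subunits were the more abundant, as PSMB7 averaged 342.8 FPKM over the 6 libraries, PSMB6 157.9 and PSMB5 113.2, against 77.9 for PSMB8, 47.3 for PSMB9 and 25.02 for PSMB10. In order, PSMB7 was 2.17-fold above PSMB6 and PSMB6 was 1.23-fold above PSME1, with ranges over the libraries that did not overlap. PSME1 (128.7 FPKM) and PSMB5 overlapped, and so did PSME2 (81.7 FPKM) and PSMB8, the former pair in the same order in 5 of 6 libraries and the latter in 4. PSMB8 exceeded PSMB9 on average by 1.65-fold and PSMB9 exceeded PSMB10 by 1.89-fold, in this order in every library. All 5 inducible genes were thus transcribed in the libraries labelled control as well.

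**Figure D1:**
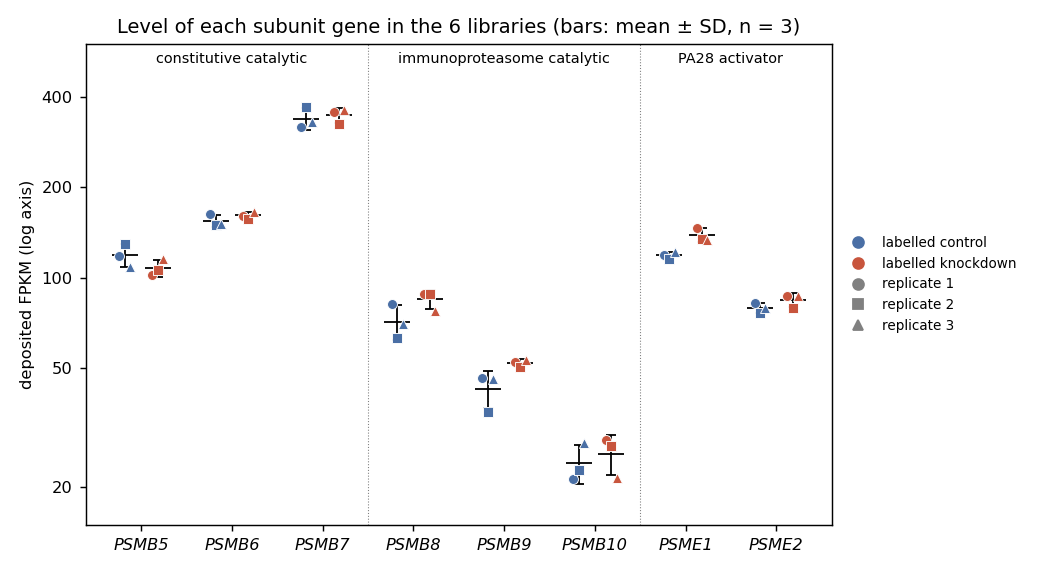
Deposited FPKM (log axis) of the 3 constitutive catalytic, the 3 immunoproteasome catalytic and the 2 PA28 genes, with 1 point per library, shape for replicate number, colour for label and bars for mean ± SD (n = 3). PSMB7 lies highest at 316.3 to 369.6 FPKM and PSMB10 lowest at 21.3 to 28.8 FPKM, and the labels separate for PSMB9 and PSME1 but not for the other genes.

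In order to ask whether the inducible catalytic subunits differed between the labels, each was examined on the CPM scale. PSMB8, the counterpart of PSMB5, had 146.3, 145.5 and 126.6 CPM in replicates 1, 2 and 3 under the knockdown label, and 134.3, 101.3 and 114.3 CPM under the control label. The groups overlapped, because control replicate 1 lay above knockdown replicate 3. PSMB9, the counterpart of PSMB6, had 51.6, 49.4 and 51.6 CPM against 45.3, 34.4 and 44.8 CPM. All 3 libraries labelled knockdown were above all 3 labelled control for PSMB9, and control replicate 2 stood lowest. PSMB10, the counterpart of PSMB7, had 37.5, 35.8 and 27.6 CPM against 27.6, 29.1 and 36.2 CPM, so knockdown replicate 3 fell among the lowest and control replicate 3 among the highest.

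The edgeR estimates followed these values. For PSMB8 the log2 fold change was 0.26 (SE 0.123, adjusted p 0.615), with a 95% interval of -1.25% to 44.9%. That of PSMB9 was 0.29 (SE 0.127, edgeR adjusted p 0.608), a difference of 22.6% with a 95% interval of 0.613% to 49.5%. Exons of PSMB9 share 139 bases (4.16%) with PSMB8 on the opposite strand. They also share 174 bases (5.21%) with the noncoding RNA PSMB8-AS1 on the same strand. PSMB10 gave 0.12 (SE 0.156, edgeR adjusted p 0.838), and its 95% interval ran from -14.8% to 38.5%. PSMB10 is also the least certain count, since 39.4% of its annotated exon bases were shared, on the same strand, with an overlapping gene (ENSG00000261884) that held 617 to 1093 reads per library.

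The PA28 genes were examined next. PSME1, the alpha subunit, had 191.8, 175.8 and 172.7 CPM under the knockdown label and 154.9, 147.2 and 156.9 CPM under the control label, and the groups did not overlap. Its edgeR log2 fold change was 0.24 (SE 0.089, adjusted p 0.605), a difference of 17.7% with a 95% interval of 2.42% to 35.3%. PSME2, the beta subunit, had 138.6, 125.9 and 136.2 CPM against 129.7, 118.2 and 124.3 CPM. Knockdown replicate 2 lay below control replicate 1, so the groups overlapped, and the edgeR log2 fold change was 0.11 (SE 0.092, adjusted p 0.746). Exons of PSME2 share 216 bases with RNF31 on the opposite strand, 6.03% of its exon bases, and the sources used here do not state whether strand was used in counting.

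The constitutive catalytic subunits gave estimates on both sides of 0. PSMB5 had 159.9, 165.4 and 178.8 CPM under the knockdown label and 184.4, 197.0 and 167.5 CPM under the control label, with control replicate 3 inside the range of the others. PSMB6 had 149.7, 146.6 and 152.6 CPM against 150.9, 136.6 and 139.2 CPM, and control replicate 1 lay among the libraries labelled knockdown. PSMB7 had 373.5, 340.0 and 373.4 CPM against 329.5, 377.7 and 340.6 CPM, the highest and the lowest library both being labelled control. In edgeR the log2 fold changes were -0.12 for PSMB5, 0.07 for PSMB6 and 0.05 for PSMB7, with adjusted p-values of 0.727, 0.825 and 0.879. The 95% intervals ran from -21.1% to 6.97% for PSMB5, from -8.33% to 20.8% for PSMB6 and from -9.79% to 19.3% for PSMB7.

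**Figure D2:**
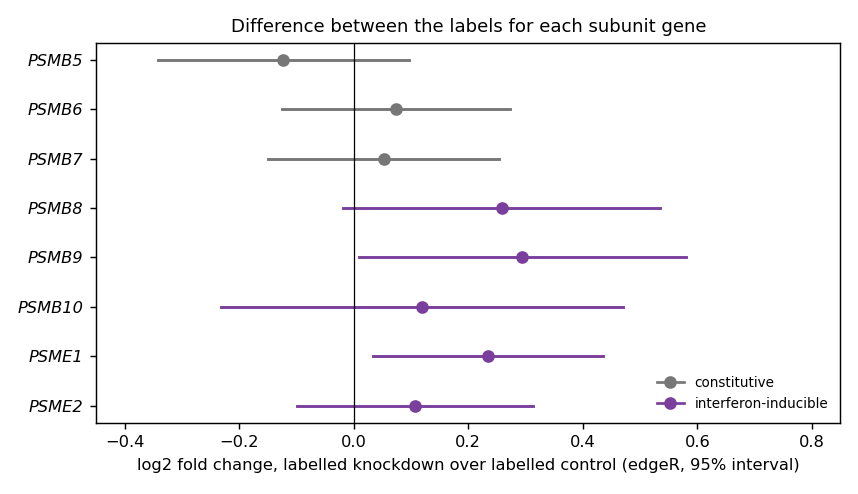
edgeR log2 fold change of each of the 8 genes (labelled knockdown over labelled control, horizontal axis) with its 95% interval, constitutive genes in grey and inducible genes in purple. The 5 inducible genes lie between 0.11 and 0.29 and the 3 constitutive genes between -0.12 and 0.07, and the intervals of PSMB9 and PSME1 lie above 0.

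Across the 8 genes, 0 passed an adjusted p of 0.05 in edgeR, where the share of all tested genes past it was 0.0%. At an unadjusted p under 0.05, edgeR gave 2 of 8, PSMB9 and PSME1, both higher under the knockdown label, against 3.86% of tested genes higher, 4.32% lower and 8.18% in either direction. DESeq2 also gave 0 of 8 past an adjusted p of 0.05 and the same 2 genes at an unadjusted one. The labels separated completely for 2 of the 8, again PSMB9 and PSME1, against 7.94% of tested genes that were apart with the knockdown label higher, 7.7% with it lower and 15.6% in either direction. The median log2 fold change was 0.24 over the 5 inducible genes and 0.05 over the 3 constitutive genes, beside -0.01 over all tested genes, and the estimate was above 0 for 5 of 5 and 2 of 3 of them, beside 49.0% of tested genes. The count of 2 at an unadjusted p was 0 without control replicate 2, 0 without knockdown replicate 1 and 1 (PSME1) without knockdown replicate 2. It was 3 without control replicate 1, with PSMB8 added. It stayed at 2 without knockdown replicate 3, but the genes were PSMB8 and PSME1, with PSMB9 at an unadjusted edgeR p of 0.0843. Without control replicate 1, 5 genes were apart, with PSMB8, PSME2 and PSMB6 added. Without knockdown replicate 3, 4 genes were apart, with PSMB8 added as higher and PSMB5 as lower. Fewer libraries separate more easily, and the matching share of all tested genes was not computed, so these counts stand without a background.

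Control replicate 2 was an extreme for most of these genes, by small margins for some. It held the lowest CPM of the 6 libraries for PSMB8, PSMB9, PSME1, PSME2 and PSMB6, and the highest for PSMB5 and PSMB7. TAP1 was also lowest there, at 33.7 CPM. Without that library the edgeR log2 fold change was 0.17 for PSMB8, 0.18 for PSMB9, 0.05 for PSMB6, -0.07 for PSMB5 and 0.11 for PSMB7. PSME1 moved little, from 0.235 to 0.210, and PSME2 went from 0.107 to 0.074. Other omissions also moved the smaller estimates. PSMB10 ranged from 0.03 without knockdown replicate 1 to 0.25 without control replicate 3, and was 0.05 without control replicate 1, 0.08 without control replicate 2 or knockdown replicate 2 and 0.24 without knockdown replicate 3. PSMB7 was 0.01 without control replicate 1, 0.10 without knockdown replicate 2, and 0.03 to 0.04 without control replicate 3, knockdown replicate 1 or knockdown replicate 3. PSMB6 was 0.12 without control replicate 1. None of these 8 estimates changed sign with 1 library left out.

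To compare each inducible subunit with the one it replaces, the log2 ratio of their counts was taken within each library, where the scaling between libraries cancels. The ratio of PSMB8 to PSMB5 was -0.13, -0.18 and -0.50 in replicates 1, 2 and 3 under the knockdown label and -0.46, -0.96 and -0.55 under the control label. Knockdown replicate 3 fell between the control libraries, so the groups overlapped, although the mean difference of 0.39 (standard error 0.192) was the largest of the 4 ratios tested. Its exact two-sided permutation p was 0.2 (0.267 adjusted over the 4 ratios), and 3 against 3 libraries cannot give less than 0.1. Per length, the FPKM of PSMB8 was 0.788 ± 0.105 of that of PSMB5 under the knockdown label against 0.607 ± 0.107 (SD, n = 3).

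The ratio of PSMB9 to PSMB6 separated the labels completely. It was -1.54, -1.57 and -1.56 under the knockdown label and -1.74, -1.99 and -1.64 under the control label, a mean difference of 0.23 (standard error 0.106). The exact two-sided permutation p was 0.1, the smallest attainable (0.2 adjusted over the 4 ratios), so a threshold of 0.05 could not be reached by this design. The libraries labelled knockdown spread little (SD 0.018) compared with those labelled control (SD 0.182). As FPKM, PSMB9 stood at 0.322 ± 0.004 of PSMB6 against 0.276 ± 0.034 (SD, n = 3).

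For PSMB10 to PSMB7 no difference was detectable. The log2 ratios were -3.31, -3.25 and -3.76 against -3.58, -3.70 and -3.23, with a mean difference of 0.06 (standard error 0.212) and an exact permutation p of 1.0, and the sign changed when control replicate 2, knockdown replicate 1 or knockdown replicate 2 was left out (-0.035, -0.00033 and -0.033). Among the PA28 subunits, the ratio of PSME1 to PSME2 was 0.47, 0.48 and 0.34 under the knockdown label and 0.26, 0.32 and 0.34 under the control label. Knockdown replicate 3 (0.342) exceeded control replicate 3 (0.336) by a small margin, so the groups were separate, with a mean difference of 0.13 (standard error 0.051) and an exact permutation p of 0.1 (0.2 adjusted over the 4 ratios).

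**Figure D3:**
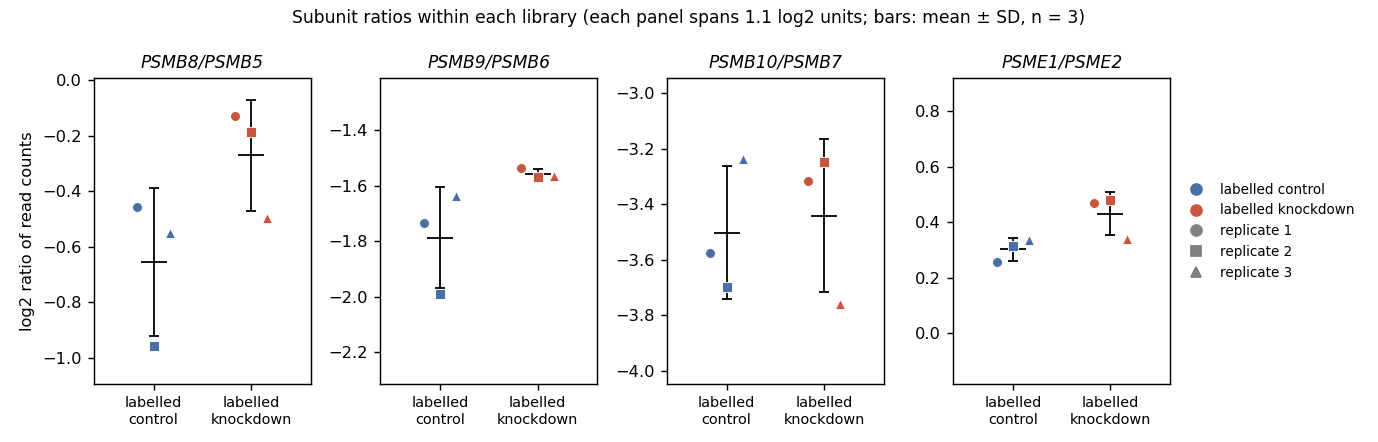
Log2 ratio of read counts within each library for the 4 subunit pairs, with 1 point per library, shape for replicate number, colour for label and bars for mean ± SD (n = 3), all panels spanning the same height. PSMB9/PSMB6 and PSME1/PSME2 do not overlap between the labels, PSMB8/PSMB5 overlaps through knockdown replicate 3 (-0.50), and PSMB10/PSMB7 is mixed.

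Without control replicate 2 the mean difference was 0.23 for PSMB8/PSMB5 and 0.13 for PSMB9/PSMB6. Any inducible subunit can be set against any constitutive one, and of the 9 such pairs the 3 with PSMB9 did not overlap between the labels whereas the 6 with PSMB8 or PSMB10 did. The mean differences spanned 0.04 (PSMB10 over PSMB6) to 0.43 (PSMB9 over PSMB5) on the log2 scale. These pairs share genes and libraries and are given as values only.

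As a single figure, PSMB8, PSMB9 and PSMB10 made up 21.5%, 21.98% and 19.1% of the FPKM summed over the 6 catalytic subunits in replicates 1, 2 and 3 under the knockdown label, and 19.99%, 15.8% and 19.7% under the control label. The means were 20.9% ± 1.53 and 18.5% ± 2.35 (SD, n = 3). The difference of 2.40 percentage points was 1.05 without control replicate 2, and the groups overlapped because knockdown replicate 3 held the second lowest share. PSMB5, PSMB6 and PSMB7 therefore made up most of the catalytic transcripts in each library, and which subunits sit in assembled particles was not measured.

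The remaining proteasome genes were then compared, from lists of general knowledge. Of the other 11 beta and alpha genes of the 20S core, 0 passed an adjusted p of 0.05 in edgeR, and 9 had a negative and 2 a positive estimate, beside 49.0% positive over all tested genes, with a median log2 fold change of -0.10. At an unadjusted p under 0.05 there were 2 lower (PSMA4 at -0.24 and PSMA1 at -0.38) and 0 higher, where 4.32% of all tested genes were lower. The groups were apart for 1 of 11, PSMA3, with the knockdown label lower, where 7.7% of all tested genes were. PSMA6 had the most negative estimate, -0.39, on only 66 to 136 reads per library. It averaged 2.73 CPM under the knockdown label and 3.57 CPM under the control label, far below most of the 11 genes. Its value is therefore uncertain, and the reason for the low count was not tested. PSMA1 and PSMA2 each appear on a pair of rows in the table with different identifiers, so the reads of these structural alpha subunits may be split and their values are uncertain.

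The 19S particle, which recognises and unfolds ubiquitinated proteins, gave 15 negative and 4 positive estimates of 19, beside 49.0% positive over all tested genes, with a median of -0.10 and 0 past an adjusted p of 0.05. At an unadjusted p under 0.05, 2 of 19 were lower (PSMD14 and PSMD12) against 4.32% of all tested genes. PSMD14, the deubiquitinase of that particle, had 120.3 ± 6.40 CPM under the knockdown label and 145.6 ± 20.9 CPM under the control label (SD, n = 3), with a log2 fold change of -0.28, and PSMD1, a large scaffold subunit, had -0.27. Their groups overlapped, and 2 of 19 (PSMC1 and PSMD2) were apart with the knockdown label lower, against 7.7% of all tested genes. Of the 12 other activators, inhibitors and assembly factors, 5 had a positive and 7 a negative estimate, with a median of -0.06 and 0 past an adjusted p of 0.05. At an unadjusted p under 0.05, 1 of 12 (POMP) was lower against 4.32% of all tested genes, and the groups were apart for PSMG4 (0.21) with the knockdown label higher and for POMP and PSMD5 (-0.22) with it lower, against 7.94% and 7.7%. POMP, the chaperone that promotes assembly of the core and in particular of the immunoproteasome, had 146.8, 146.9 and 160.3 CPM against 183.0, 189.9 and 169.7 CPM. These groups did not overlap, with the labelled knockdown lower, and the edgeR log2 fold change was -0.26 (SE 0.092, adjusted p 0.599). The nuclear activator PSME3 (218.2 ± 12.1 against 219.3 ± 14.5 CPM) and the inhibitor PSMF1 (181.2 ± 13.5 against 167.6 ± 12.7 CPM, SD, n = 3) gave -0.01 and 0.11. PAAF1, an assembly factor of the 19S particle, gave 0.33 and PSME4, a further activator, -0.31, and their groups overlapped. Of the subunits restricted to testis and thymus, PSMA8 held 1 read in all libraries together and PSMB11 was not listed.

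Genes that act on the peptides afterwards were compared as well. Of 15 peptide loading and MHC class I genes, 0 passed an adjusted p of 0.05, 5 (TAP1, HLA-B and B2M among them) were higher at an unadjusted p under 0.05 against 3.86% of tested genes, and 6 (HLA-F among them) were apart with the labelled knockdown higher against 7.94%. The median log2 fold change over the list was 0.07. TAP1, which moves peptides into the endoplasmic reticulum, had 65.0, 55.6 and 75.9 CPM under the knockdown label and 52.3, 33.7 and 49.9 CPM under the control label. Its groups were apart, and edgeR gave a log2 fold change of 0.53 (SE 0.18, adjusted p 0.599). Its partner TAP2 had 33.2 ± 2.27 against 31.6 ± 1.36 CPM (SD, n = 3) and a log2 fold change of 0.07, and the estimates of their neighbours PSMB8 and PSMB9 lay between those values. HLA-B and HLA-F, class I heavy chains, gave 0.37 and 0.50, and reads of class I genes are uncertain because the genes are near-identical in part. PSMB8-AS1, a noncoding RNA that overlaps 602 exon bases of PSMB8 on the opposite strand, held 62 to 135 reads per library, with a log2 fold change of 0.34 (SE 0.382).

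**Figure D4:**
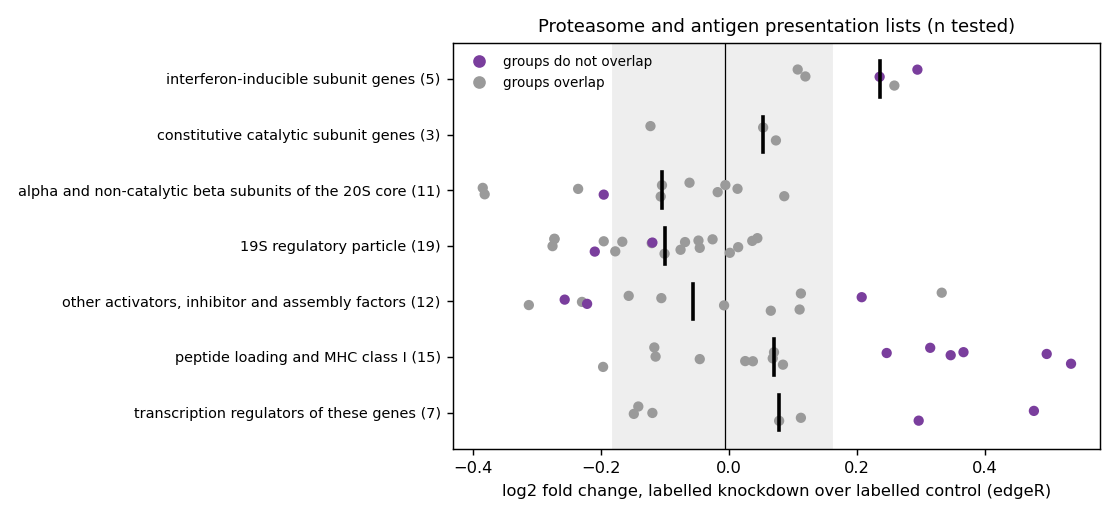
edgeR log2 fold change (labelled knockdown over labelled control) of each tested gene by list, with a black bar for the median of the list, a thin vertical line for the median of all tested genes (-0.01), purple for genes whose groups do not overlap, and a grey band for the middle range of all tested genes (-0.18 to 0.16). The 5 inducible subunit genes lie right of 0, most genes of the core and of the 19S particle lie left of it, and the 6 separated MHC class I and loading genes lie between 0.25 and 0.53.

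Of the known transcription regulators of these genes, 0 of 7 tested passed an adjusted p of 0.05, and 4 estimates were positive and 3 negative. At an unadjusted p under 0.05, 1 of 7 (STAT2) was higher against 3.86% of all tested genes, and 2 of 7 (STAT2 and NLRC5) were apart with the knockdown label higher against 7.94%. IRF1, which binds response elements of the kind shown above, had 74.4 ± 0.568 CPM against 70.5 ± 8.11 CPM (SD, n = 3) and gave 0.08. NLRC5, the transactivator of MHC class I genes, had 10.2, 11.1 and 10.9 CPM against 8.61, 9.85 and 7.80 CPM. The groups of NLRC5 did not overlap, and its edgeR log2 fold change was 0.30 (SE 0.159, adjusted p 0.636). STAT2, a component of ISGF3, was likewise apart, at 22.3 ± 4.33 against 16.0 ± 2.39 CPM (SD, n = 3), with a log2 fold change of 0.48. NFE2L1, which drives constitutive proteasome genes when the proteasome is impaired, gave -0.15, and NFE2L2, the antioxidant regulator, -0.12, both with overlapping groups. IRF9, with 0 to 2 reads per library, fell below the low-count filter. Whether its reads were counted under another entry was not tested, so a lack of the transcript cannot be read from this count.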

How the data were processed

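Polyadenylated RNA of 6 HK-2 libraries was sequenced from directional libraries. The submitters' processing notes name bcl2fastq, TopHat2, edgeR and GRCh38, without versions or roles, and no source used here names the counting program, annotation or strand setting. The authors deposited raw read counts per gene for 26899 genes and FPKM for all but 96 of them, rounded to 2 decimals. All 6 columns of each table were used.

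The quasi-likelihood framework of edgeR (version 4.0.16, under R 4.3.3) was fitted to the counts with TMM scaling, the default low-count filter (minimum count 10, total 15), 1 model without covariates and Benjamini-Hochberg adjustment over 15299 genes, with a threshold of 0.05. CPM uses the reads in tested genes times the TMM factor. Intervals are at 95%. Ratios of counts were compared by exact two-sided permutation over libraries (scipy 1.17.1). The alternatives were other scalings, filters and tests (DESeq2 1.42.0, limma 3.58.1 on voom weights or FPKM), a replicate block and the omission of each library. The scripts were tested on simulated counts. Replicates differed beyond sampling noise (chi-square per degree of freedom 9.64 to 49.7), so each counted as 1 sample.

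The 8 genes and the gene lists were chosen with earlier results of these data known. Besides the 8 genes, those named are ANXA2, genes of the pathway fixed by name, the 2 genes of largest estimate in each list, and the 5 genes most like each profile. Others (PSMA2, PSMA3, PSMA4, PSMC1, PSMD2, PSMD5, PSMD12, PSMG4, B2M, PSMA8, PSMB11, IRF9, RNF31 and the markers) were named after their values were seen or as checks. Items withheld for evaluation are not reported here.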

Additional observations from a re-analysis of the deposited data

How the results depend on the processing

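Of the 144 estimates of single subunit genes under 18 alternatives each, all kept their direction and stayed outside the threshold, and the smallest adjusted p among them was 0.362. The count of subunit genes past an adjusted p of 0.05 was 0 under all 18. Over all genes edgeR gave 0 calls (1251 at an unadjusted p under 0.05), against 165 without the low-count filter and 31 by DESeq2, and 0 to 4 when 1 library was left out. The counts of subunit genes at an unadjusted p and of separated subunit genes were added after the data were seen. The former was 2, and it was 1 with library size alone and 0 to 3 when 1 library was left out. It was 3, with PSMB8 added, both without the low-count filter and with limma-voom. The latter was 2, and 2 to 5 when 1 library was left out, where separation is easier to reach. The matching shares of all tested genes under these alternatives were not computed, so both counts stand without a background there. With 1 library omitted, the differences in log2 ratio were 0.234 to 0.499 for PSMB8/PSMB5, 0.129 to 0.306 for PSMB9/PSMB6 and 0.102 to 0.172 for PSME1/PSME2. For PSMB10/PSMB7 they were -0.0351 to 0.221, with -0.0351 without control replicate 2, -0.0332 without knockdown replicate 2 and -0.00033 without knockdown replicate 1, and the cause was not tested. The difference in immunoproteasome share was 1.05 to 3.27 percentage points.

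The labels do not say that a replicate number marks a shared culture or day, and deviations of same-numbered libraries from the group means correlated at -0.096, 0.175 and -0.291, so the numbers were not taken as pairs. With the replicate number as a block, edgeR gave 0 genes past the threshold and log2 fold changes of 0.305 for PSMB9 and 0.234 for PSME1, and the paired exact sign-flip p was 0.25 for PSMB8/PSMB5, PSMB9/PSMB6 and PSME1/PSME2, the smallest 3 pairs allow, and 1.0 for PSMB10/PSMB7. Control replicate 2 was the only library that correlated best with its own number.

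Each subunit gene held 674 to 12745 reads per library, with 3 libraries a group. Over all genes, the spread between libraries exceeded counting error (chi-square per degree of freedom 9.64 to 49.7). The spread was not compared with counting error for single subunit genes or ratios.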

Other observations

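Among 13215 tested genes with a mean of at least 1 CPM, those whose log2 CPM over the 6 libraries was most like the mean of PSMB8, PSMB9 and PSMB10 were SH3GL1 (Pearson r 0.995), IL32 (0.992), VPS51 (0.992), FAM57A (0.992) and BCL9L (0.990). Their log2 fold changes were 0.16, 0.40, 0.20, 0.25 and 0.38. Those most like the mean of PSMB5, PSMB6 and PSMB7 were ZNF431 (0.991), TGFBRAP1 (0.986), KLF5 (0.968), DAGLB (0.966) and RBM20 (0.966). These are the highest of 13215 correlations over 6 points from the same libraries, and are given as a description.

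Among the 8 genes themselves, PSMB9 followed PSMB8 (r 0.847), PSME1 (0.835) and PSME2 (0.859) over the 6 libraries, whereas PSMB10 followed PSMB8 and PSMB9 less closely (0.368 and 0.322). PSMB5 ran opposite to all 5 inducible genes, at -0.850 with PSMB10, -0.805 with PSME1, -0.769 with PSMB9, -0.707 with PSMB8 and -0.533 with PSME2. PSMB6, another constitutive subunit, ran with PSMB9 (0.814) and PSME2 (0.875). These values share libraries and depth, and control replicate 2 is an extreme of most of these genes.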
